A study of Gasterosteus aculeatus with 60 samples.

Results

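Brain gene expression in diencephalon was compared between male threespined sticklebacks taken 60 minutes after a territorial challenge and control males taken at the same time. The libraries were picked by their labels, as diencephalon, 60 minutes, challenged or control, which gave 10 of the 60 libraries of the series, 5 from challenged and 5 from control males. Challenged males had been shown a smaller and unrelated male held inside a flask and control males a flask with no fish in it, and time was counted from when the flask was introduced. All were adult wild-caught males of the freshwater population of Putah Creek that held a territory in the laboratory, and no allele or drug set the groups apart. Fish numbers are those of the labels. The control males were fish 3, 8, 15, 27 and 35 and the challenged males were fish 4, 7, 21, 28 and 36, each of which also gave a telencephalon library. The series holds the same design at 30 and 120 minutes with other fish, 5 per treatment and time. Poly-A RNA of whole dissected diencephalon was sequenced, so that fewer cells of a type and less RNA per cell cannot be told apart.

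The diencephalon contains the thalamus and the hypothalamus. Hypothalamic neurons make vasopressin- and oxytocin-type peptides and control the pituitary, which hangs from the floor of the diencephalon, and the optic nerves reach the brain at this level. In territorial fish these circuits link the sight of a rival to hormones, arousal and behavior. Neuronal activity is followed in many species by immediate early genes, whose transcription begins within minutes and which encode transcription factors such as Fos and Egr1.

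Counts on genes summed to between 19034368 and 43232421 per library in challenged males and between 21348316 and 36137653 in control males. Of 17536 genes, 17448 had at least 1 cpm (read counts scaled by the size of the library) in at least 2 diencephalon libraries and were tested. Levels are given as cpm after TMM normalization, which rescales libraries to the bulk of their genes, and differences as log2 fold changes of challenged over control males with their standard error (SE). The hypothalamic transcription factors OTP, otpa, sim1b and six6a and the peptide genes avp and oxt were higher in diencephalon than in telencephalon in 10 of 10 fish. The pallial gene tbr1b had a median of 6.81 cpm in diencephalon and 252 cpm in telencephalon, and eomesa 3.54 and 284 cpm. The marker nkx2.1 went the other way and was lower in diencephalon in 10 of 10 fish, and emx2, listed among telencephalic genes, was higher in diencephalon in 10 of 10. Library index was not balanced between the groups, since fish 7, 21 and 28 (challenged) shared one index and fish 3 and 8 (control) another. Some libraries stood apart. Control fish 8 was the highest fish for 37 of 40 microglia and leukocyte genes, control fish 35 for 70 of 71 photoreceptor genes and challenged fish 4 for 8 of 10 pituitary genes. The lists in which these fish were highest for most genes are given with and without them.

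Across all genes, no gene passed the adjusted threshold of 0.1 in edgeR's quasi-likelihood test, and the smallest Benjamini-Hochberg adjusted p-value was 0.444. Without adjustment, 1826 genes (10.5% of those tested) had a p-value under 0.05. Of these, 672 (3.85%) were higher and 1154 (6.61%) were lower in challenged males. A likelihood ratio test with tagwise dispersion called 6 genes higher (0.0344%) and 44 lower (0.252%), and DESeq2 called 19 higher (0.11%) and 57 lower (0.329%). The genes on the higher side differed by small amounts, with a median absolute log2 fold change of 0.21, and 24 of them exceeded 1. Those on the lower side had a median of 0.71, and 477 exceeded 1.

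Control fish 8 was highest of the 10 fish for 442 (38.3%) of the 1154 lower genes, beside 17.8% of all genes tested. Control fish 35 was highest for 292 (25.3%), beside 11%, and control fish 3 for 218 (18.9%), beside 13.8%. A gene lower in challenged males is nearly always highest in a control male, whereas shares over all genes count challenged males too. Larger shares in control males thus follow in part from direction alone, and no excess is read from them. For the 672 higher genes, whose highest fish is by direction mostly a challenged male, it ranged from 97 genes in fish 4 to 183 in fish 28. Without control fish 8 and 35, 402 (34.8%) of the 1154 lower genes still had a p-value under 0.05 and 120 had turned to the other direction, while 464 (69%) of the 672 higher genes still had one and none had turned. These fish were chosen after seeing the data, in which they were highest for many lower genes. No pair of challenged males was left out in the same way, so the 2 sides were not treated alike. Of the 17353 genes then tested, 9.44% had a p-value under 0.05, 842 (4.85%) on the higher and 796 (4.59%) on the lower side. Across the fit of all fish and the 10 fits with 1 fish left out, 367 genes (2.1%) kept a p-value under 0.05, of which 245 (1.4%) were higher and 122 (0.699%) lower. The 2 groups did not overlap for 234 genes (1.34%), of which 158 (0.906%) were higher in all challenged males than in any control male and 76 (0.436%) lower.

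**Figure D1:**
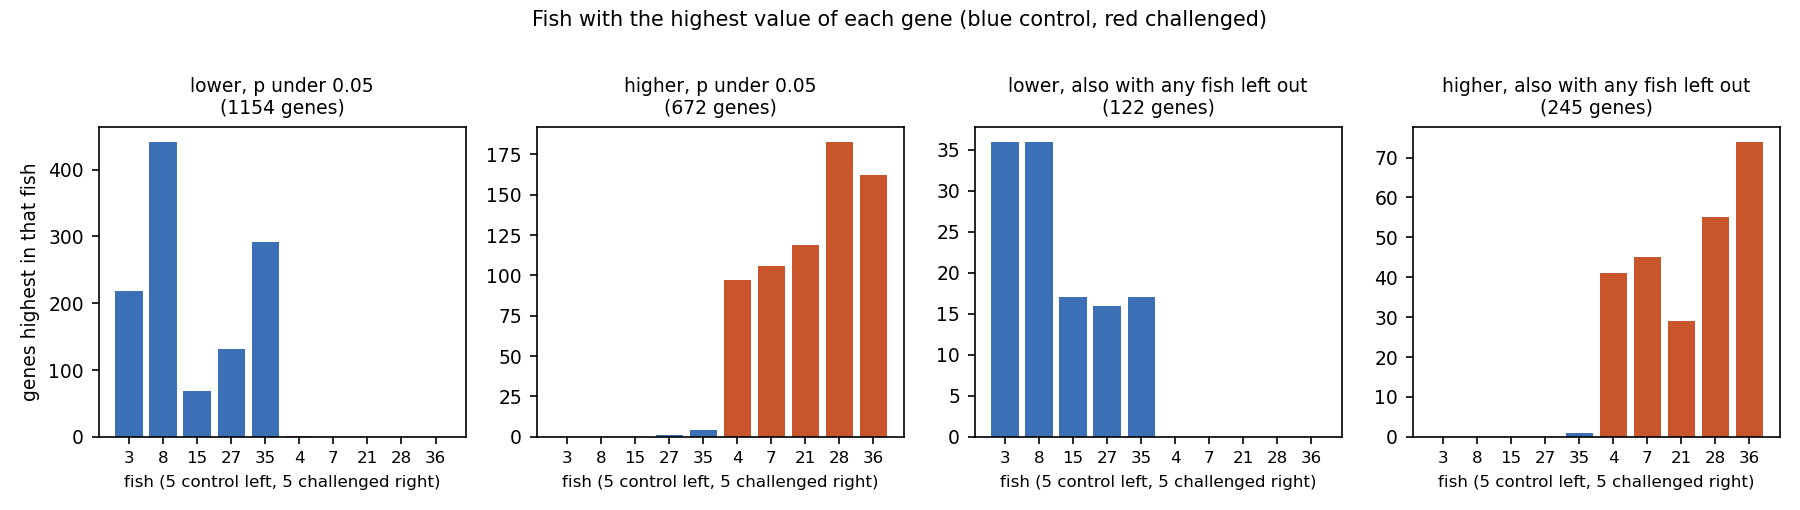
Number of genes (vertical axis) whose highest value among the 10 diencephalon libraries lay in each fish (horizontal axis, control blue, challenged red), for genes with an unadjusted p-value under 0.05 and for those that also kept it with any fish left out. Of the 1154 lower genes, 442 were highest in control fish 8 and 292 in control fish 35, whereas the 672 higher genes were spread over the 5 challenged fish. That lower genes are highest in control males and higher genes in challenged males follows from their direction.

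Among the genes with the smallest p-values was slc8a4b, a member of the sodium/calcium exchanger family (ENSGACG00000019764, groupVII from 7576613 to 7607584 in Ensembl release 75). It was at 48.3, 54.4, 50.6, 47.7 and 53.8 cpm in control fish 3, 8, 15, 27 and 35 and at 64.1, 67.9, 61.0, 67.0 and 70.9 cpm in challenged fish 4, 7, 21, 28 and 36. All challenged males lay above all control males. The means were 51.0 ± 3.09 and 66.2 ± 3.80 cpm (SD, n = 5 each). The log2 fold change was 0.38 (SE 0.07, edgeR- and Benjamini-Hochberg-adjusted p = 0.444, exact two-sided permutation p = 0.00794, the smallest that 5 against 5 fish allow), and in telencephalon of the same fish it was 0.26. ATP5SL, an ATP5S-like gene (ENSGACG00000005762, groupI from 1924903 to 1926389), was at 4.44, 5.10, 6.06, 5.13 and 5.43 cpm in control and 7.78, 6.90, 6.18, 7.75 and 7.47 cpm in challenged males, in the same order of fish. Again no fish of one group reached the other. Its log2 fold change was 0.46 (SE 0.10, edgeR-adjusted p = 0.534).

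lrrc4bb and lingo3a were also higher. lrrc4bb, a leucine-rich repeat gene of a family of postsynaptic adhesion proteins (ENSGACG00000008204, groupV from 10051108 to 10053334), ran from 242 to 279 cpm in control males and from 293 to 300 cpm in challenged males, so the groups did not overlap. With all fish its log2 fold change was 0.19 (SE 0.04, edgeR-adjusted p = 0.534). For lingo3a, a related leucine-rich repeat and immunoglobulin domain gene (groupVIII from 16041766 to 16043610), control males ran from 23.9 to 33.1 cpm and challenged males from 34.4 to 40.2 cpm, with a log2 fold change of 0.40 (SE 0.10, edgeR-adjusted p = 0.534). Control fish 35 was the control male closest to the challenged group for lingo3a, and without it the log2 fold change was 0.48.

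On the lower side stood hexokinase 1 (hk1, ENSGACG00000016084, groupII from 13433139 to 13446582), which makes the first step of glucose breakdown. It was at 20.8, 35.1, 23.5, 22.1 and 22.1 cpm in control fish 3, 8, 15, 27 and 35 and at 14.3, 15.3, 16.6, 14.7 and 17.2 cpm in challenged fish 4, 7, 21, 28 and 36. Every challenged male lay below every control male, and control fish 8 was the highest. Challenged over control, the log2 fold change was -0.66 (SE 0.15, edgeR-adjusted p = 0.534, exact permutation p = 0.00794), and -0.50 without fish 8. klc3, a light chain of the kinesin motor (ENSGACG00000012419, groupI from 15889642 to 15897725), was at 24.3, 22.4, 20.1, 16.4 and 22.3 cpm in control and 13.2, 13.3, 12.8, 15.5 and 13.7 cpm in challenged males. The groups did not overlap, though control fish 27 came within about 1 cpm of challenged fish 28. It had a log2 fold change of -0.62 (SE 0.14, edgeR-adjusted p = 0.534).

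Further genes with small p-values on the lower side were KLHL7, a kelch-like adaptor of ubiquitin ligases (groupX from 8770767 to 8776118), gpn2, a GTPase (groupXX from 8139823 to 8143249), and ndrg1a, a stress-responsive gene of the N-myc downstream regulated family (groupX from 8666553 to 8677287). KLHL7 ran from 20.6 to 22.8 cpm in control and from 16.1 to 19.9 cpm in challenged males. gpn2 ran from 20.7 to 25.9 cpm in control and from 16.5 to 20.2 cpm in challenged males. Both sets of groups were apart, with log2 fold changes of -0.26 (SE 0.06) and -0.44 (SE 0.11, edgeR-adjusted p = 0.534 for both). ndrg1a was at 130 to 197 cpm in control and 103 to 143 cpm in challenged males, so its groups overlapped, and its log2 fold change was -0.49 (SE 0.12, edgeR-adjusted p = 0.534). In telencephalon the log2 fold changes of these 3 genes were -0.27, -0.34 and -0.78.

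Among named genes of at least 1 cpm whose groups did not overlap, those with large differences on the higher side included nsmfb (2 of 2), dlx5a, KCNH4 (2 of 2) and adhfe1. nsmfb (2 of 2) encodes a protein that in mammals carries NMDA receptor signals from synapse to nucleus (groupXIII from 3199826 to 3242850). Its level was 20.6, 18.9, 20.4, 16.4 and 12.4 cpm in control and 46.2, 22.7, 27.1, 27.7 and 37.4 cpm in challenged males. Fish 4 was highest and every challenged male was above every control male. It differed by a log2 fold change of 0.86 (SE 0.21, edgeR-adjusted p = 0.534, exact permutation p = 0.00794) and 0.70 without fish 4. Groups without overlap always give this permutation p, so for genes picked for that reason it adds no evidence. For genes picked by a small p-value in the fit of these same libraries, here and in the other paragraphs, it is not independent evidence either. KCNH4 (2 of 2), a voltage-gated potassium channel (groupXI from 5842754 to 5854706), was at 9.36 to 14.0 cpm in control and 14.1 to 23.1 cpm in challenged males, with a log2 fold change of 0.62 (SE 0.22, edgeR-adjusted p = 0.623). adhfe1, an iron-containing alcohol dehydrogenase (scaffold_120 from 95125 to 103663), was at 29.6 to 43.8 cpm in control and 47.4 to 59.4 cpm in challenged males, with a log2 fold change of 0.52 (SE 0.22, edgeR-adjusted p = 0.688).

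On the lower side, with the same limits, the 5 genes with the largest differences were grk7a, WASF3 (2 of 2), samd7, fscn2a and zdhhc23a. All of these except zdhhc23a reached the mean of 1 cpm only through control fish 35, so their place in this ranking rests on that fish. Of these, grk7a (opsin kinase), samd7 and fscn2a are photoreceptor genes and are described with that group. WASF3 (2 of 2), a regulator of actin assembly, was at 0.367, 0.437, 0.558, 0.425 and 11.4 cpm in control and 0.0525, 0.330, 0.349, 0.230 and 0.0808 cpm in challenged males, so that control fish 35 carried most of the difference, and without it the gene no longer passed the expression filter. WASF3 (2 of 2) lies on groupVII from 22258790 to 22263269, and zdhhc23a, a palmitoyl transferase gene, on the same linkage group from 22247011 to 22249303. zdhhc23a was at 5.60, 0.933, 2.06, 1.53 and 2.36 cpm in control and 0.420, 0.528, 0.761, 0.299 and 0.444 cpm in challenged males. Control fish 3 was highest and no challenged male reached the lowest control male. The gene had a log2 fold change of -2.34 (SE 0.62, edgeR-adjusted p = 0.534, exact permutation p = 0.00794) and lay at -2.35 without fish 35. Since fish 35 was not its highest fish, that value does not show how far the difference rests on fish 3. That permutation p was fixed by the choice of genes without overlap.

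Genes of glutamate and GABA signalling, the main excitatory and inhibitory transmitter systems, tended to be slightly higher in challenged males. Of 24 genes, 13 were higher with an unadjusted p-value under 0.05 and 5 were lower, beside 3.85% higher and 6.61% lower over all genes, and the median log2 fold change was 0.20, beside -0.02 over all genes. Of these 24 genes, 12 stand in the published list of genes for this comparison, which was drawn from the same libraries, so that their direction is not independent evidence. That list holds 650 genes, beside 17448 genes tested here. All gene lists here were drawn from genes that the study's tables name. Most of those tables hold genes chosen for differences in these libraries, so shares over all genes are not a like background. The groups did not overlap for 6 of the 24 and all 6 were higher, beside 0.906% of all genes. A p-value under 0.05 was kept in all 10 fits with 1 fish left out by 10, all of them higher, beside 1.4% higher over all genes. The median lay between 0.18 and 0.21 over those 10 fits.

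The GABA-A receptor subunit gene GABRA5 (2 of 2) (ENSGACG00000014968, groupI from 23675848 to 23692437) was at 58.2, 63.0, 56.1, 54.4 and 58.9 cpm in control fish 3, 8, 15, 27 and 35 and at 66.4, 75.9, 74.3, 66.4 and 74.9 cpm in challenged fish 4, 7, 21, 28 and 36. No control male reached a challenged male. The means were 58.1 ± 3.25 and 71.6 ± 4.78 cpm (SD, n = 5 each). This gave a log2 fold change of 0.30 (SE 0.07, edgeR-adjusted p = 0.534, exact permutation p = 0.00794), and 0.29 in telencephalon of the same fish. slc32a1, which encodes the transporter that loads GABA and glycine into synaptic vesicles (ENSGACG00000006379, groupXVII from 4976578 to 4979516), was at 201, 186, 200, 199 and 190 cpm in control and 215, 221, 219, 223 and 236 cpm in challenged males. The groups were again apart. The fitted log2 fold change was 0.19 (SE 0.05, edgeR-adjusted p = 0.534, exact permutation p = 0.00794), and in telencephalon it was 0.08.

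The other members without overlap, named after their values were seen, were GRM7 (1 of 2), GRM7 (2 of 2) and GRM5 (1 of 2), which encode metabotropic glutamate receptors, and gabbr2, a subunit of the GABA-B receptor. Control males ran from 55.5 to 58.0 cpm and challenged males from 60.0 to 70.0 cpm for GRM7 (1 of 2), with a log2 fold change of 0.23. For gabbr2 the ranges were 101 to 114 and 118 to 125 cpm, with a log2 fold change of 0.21. Of the 5 lower members, also named after their values were seen, 4 encode transporters (slc1a2a, slc1a3b, slc12a5b and slc17a7) and 1 a receptor subunit (grin2ca). slc1a3b, a glutamate transporter of glia, was at 203, 26.9, 93.9, 61.6 and 27.1 cpm in control males and 17.0 to 37.3 cpm in challenged males, and slc17a7, the vesicular glutamate transporter, at 160, 30.6, 71.4, 74.6 and 40.4 cpm in control and 26.5 to 42.7 cpm in challenged males. Both were highest in control fish 3. slc1a2a, another glutamate transporter gene, was at 17.4 cpm in control fish 35 and at most 1.72 cpm in any other fish.

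Synaptic genes showed a like pattern. Of 24 genes, 11 (45.8%) were higher and 2 (8.33%) lower at an unadjusted p-value under 0.05, beside 3.85% and 6.61% over all genes. With any fish left out 8, all higher, kept it, beside 1.4% higher over all genes. Of the 24, 5 stand in the published list drawn from these libraries. The median log2 fold change was 0.13 and lay between 0.11 and 0.15 with any fish left out. nrxn2a, which encodes a presynaptic adhesion protein of the neurexin family (groupVII from 21762041 to 21835045), was at 288, 263, 297, 284 and 286 cpm in control and 308, 312, 302, 316 and 330 cpm in challenged males. SV2A (1 of 2), a synaptic vesicle glycoprotein gene (groupX from 5292247 to 5299137), was at 195, 194, 209, 210 and 200 cpm in control and 219, 231, 228, 222 and 230 cpm in challenged males. For both genes the groups did not overlap, and the log2 fold changes were 0.14 (SE 0.05, edgeR-adjusted p = 0.565) and 0.17 (SE 0.06, edgeR-adjusted p = 0.596). In telencephalon they were 0.26 for each. The postsynaptic scaffold gene DLG4 (2 of 2) was the third member without overlap, at 184 to 208 cpm in control and 209 to 241 cpm in challenged males. Over all genes 0.906% were higher without overlap.

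**Figure D2:**
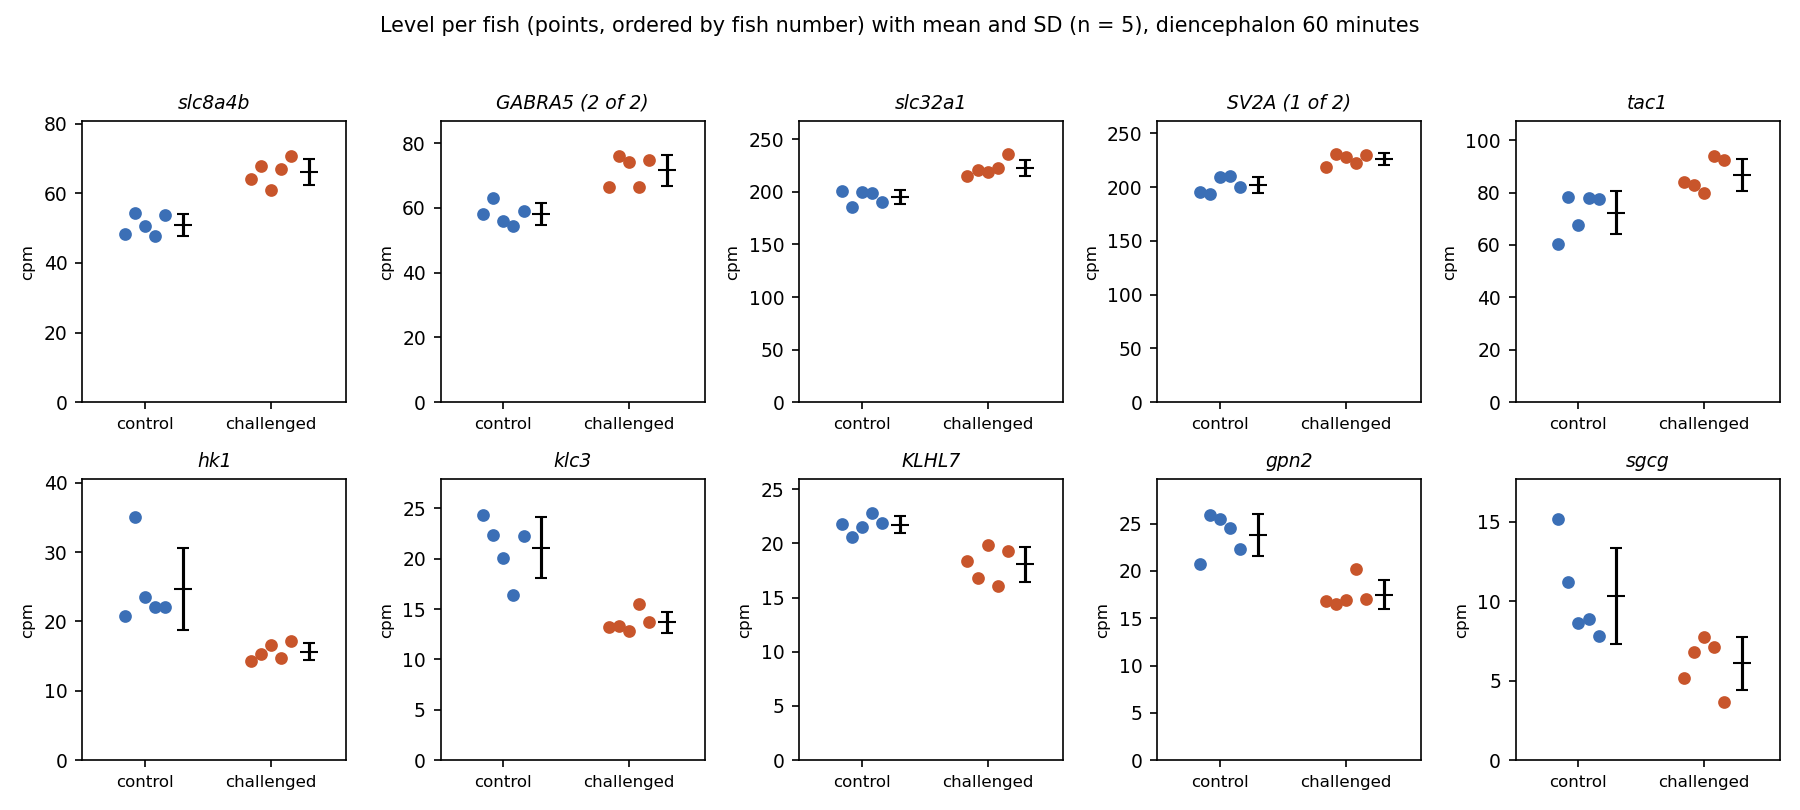
Level in cpm (vertical axis, from 0) of 10 genes in each diencephalon library at 60 minutes, with control males in blue and challenged males in red, points ordered by fish number, and the mean with its SD over 5 fish. The genes were picked from those whose groups did not overlap (1.34% of all genes tested). For GABRA5 (2 of 2) the control males lie between 54.4 and 63.0 cpm and the challenged males between 66.4 and 75.9 cpm.

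Of 9 neuropeptide and peptide processing genes, 2 (22.2%) were higher at an unadjusted p-value under 0.05, beside 3.85% over all genes, none was lower, and none is in the published list. This does not make them an independent set, since they too were drawn from genes named in the study's tables. Tachykinin 1 (tac1, ENSGACG00000000093, scaffold_58 from 590630 to 595294), the precursor of substance P, was at 60.3, 78.2, 67.5, 78.1 and 77.5 cpm in control and 84.1, 82.8, 80.0, 94.0 and 92.4 cpm in challenged males. pcsk1, the convertase that cuts peptide precursors in secretory granules (ENSGACG00000008926, groupXVII from 8529588 to 8540152), was at 190, 188, 184, 202 and 200 cpm in control and 218, 217, 218, 236 and 210 cpm in challenged males. Neither gene showed overlap between the groups. Their log2 fold changes were 0.26 (SE 0.09) and 0.19 (SE 0.075), with adjusted p-values of 0.634 and 0.659 in edgeR, and each had an exact permutation p of 0.00794. That permutation p follows from the lack of overlap, and both genes were named for the smallest p-values of their list, so it adds no evidence.

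The nonapeptide genes, whose products act on social behavior in many vertebrates, did not separate the groups. oxt was at 197, 273, 204, 236 and 343 cpm in control and 307, 292, 329, 302 and 396 cpm in challenged males. Challenged males were in the upper part of the range, but control fish 35 was above all of them except fish 36. The log2 fold change was 0.38 (SE 0.55, edgeR-adjusted p = 0.963) and the exact permutation p was 0.0635. avp was at 129, 199, 202, 296 and 231 cpm in control and 198, 118, 200, 174 and 273 cpm in challenged males, with full overlap, a log2 fold change of -0.14 (SE 0.55) and an exact permutation p of 0.627. The SE and adjusted p come from the fit over the diencephalon libraries of all times, so they also carry the spread at other times. Both genes are on the list of 9 diencephalic genes. Its sum was 380 to 745 cpm in these 10 libraries and 56.2 to 821 cpm in those of 30 and 120 minutes.

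Immediate early genes were close to their control levels 60 minutes after the flask was introduced. Of 20 such genes, 2 (10%) were higher and none lower at an unadjusted p-value under 0.05, beside 3.85% higher over all genes. The median log2 fold change was 0.09, and none is in the published list. The higher count was 0 without control fish 27 or 35 or challenged fish 7, 21 or 36 and with the library index in the model, and 5 without challenged fish 28. egr1 was at 78.7, 74.4, 83.3, 66.0 and 65.8 cpm in control and 75.5, 84.2, 90.2, 77.8 and 84.5 cpm in challenged males. EGR4 (ENSGACG00000017612, groupIX from 8457238 to 8457516) was at 7.93, 7.02, 9.19, 7.00 and 6.68 cpm in control and 8.98, 10.2, 10.4, 7.87 and 12.2 cpm in challenged males. The groups overlapped for both. The fitted log2 fold changes were 0.16 (SE 0.07, edgeR-adjusted p = 0.707) and 0.39 (SE 0.18, edgeR-adjusted p = 0.724), with exact permutation p-values of 0.0794 and 0.0397. fos itself, named after its values were seen, ran from 10.7 to 29.3 cpm in control and from 20.7 to 26.5 cpm in challenged males. A second copy, EGR4 (1 of 2), was at 7.65 to 13.5 cpm in control and 10.1 to 14.7 cpm in challenged males, with a log2 fold change of 0.24.

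Genes of the circadian clock and of steroid signalling gave few differences. Of 10 clock genes, 2 (20%) were higher and none lower at an unadjusted p-value under 0.05, beside 3.85% higher over all genes. The cryptochrome gene cry3 (groupXIX from 1002682 to 1016637) was at 29.3, 24.5, 25.9, 22.7 and 31.8 cpm in control and 42.2, 34.6, 42.6, 44.8 and 30.4 cpm in challenged males, where fish 36 fell among the control values. NFIL3, a repressor in the clock output, ran from 21.0 to 28.2 cpm in control and from 25.4 to 40.7 cpm in challenged males. They had log2 fold changes of 0.54 (SE 0.25) and 0.35 (SE 0.15), with adjusted p-values of 0.732 and 0.682 in edgeR. Of 9 genes of steroid and stress hormone signalling, none had a p-value under 0.05. klf9, which glucocorticoids induce in other vertebrates, was at 8.76 to 16.8 cpm in control and 6.90 to 10.8 cpm in challenged males, with an unadjusted p of 0.2 in edgeR and an exact permutation p of 0.0397.

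Energy metabolism genes were lower or close to control levels. Of 24 genes, 11 (45.8%) were lower and none higher at an unadjusted p-value under 0.05, beside 6.61% lower over all genes. The median log2 fold change was -0.59, and 11 of the 24 stand in the published list drawn from these libraries. Without control fish 8 the lower count was 7 and the median -0.50. The lower count was 5 with the library index in the model and 5 without control fish 8 and 35. The groups did not overlap for 3 of the 24 genes, all lower, beside 0.436% lower without overlap over all genes. These were hk1 and, named after their values were seen, pfkfb3 and PFKL, which act in or regulate the same early steps of glucose breakdown. pfkfb3 (groupIV from 22147684 to 22153447), whose product makes the activator of phosphofructokinase, was at 34.3, 16.5, 27.6, 23.6 and 19.9 cpm in control and 14.0, 12.4, 11.5, 12.8 and 14.1 cpm in challenged males, with a log2 fold change of -0.91 (SE 0.34, edgeR-adjusted p = 0.634). PFKL, a phosphofructokinase gene, ran from 26.1 to 37.9 cpm in control and from 17.7 to 25.9 cpm in challenged males. Other members were high in single fish. The sugar transporter gene slc2a6 (groupXI from 14746039 to 14749506) was at 57.3 cpm in control fish 8 and at most 1.05 cpm in every other fish, and its log2 fold change of -4.71 was 0.69 without fish 8.

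Genes of microglia and leukocytes, the immune cells of brain and blood, were lower in challenged than in control males, and 1 control male held the difference. Of 40 genes, 31 (77.5%) were lower and none higher at an unadjusted p-value under 0.05, beside 6.61% lower over all genes. The median log2 fold change was -1.49, and 31 of the 40 stand in the published list drawn from these libraries. Summed over the 40 genes, the level was 463, 5430, 462, 488 and 392 cpm in control fish 3, 8, 15, 27 and 35 and 736, 461, 470, 438 and 490 cpm in challenged fish 4, 7, 21, 28 and 36. Control fish 8 lay far above the others, and challenged fish 4 was the highest of the challenged males. Without fish 8 the median was 0.26 and 1 of the 40 genes, ARHGAP9, had a p-value under 0.05 (named after its values were seen). With the library index in the model 1 gene was lower and the median was -0.85, and in the 10 libraries alone 7 were lower. In the telencephalon of fish 8 the sum was 2760 cpm, and 427 to 709 cpm in the other 9 fish. In the 20 diencephalon libraries of 30 and 120 minutes it ran from 391 to 3460 cpm with a median of 471, so none of them reached the level of fish 8.

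The receptor of microglial processes p2ry12 (ENSGACG00000010226, groupI from 10334339 to 10336553) was at 18.8, 230, 23.6, 26.9 and 16.5 cpm in control and 26.3, 24.4, 27.7, 21.5 and 26.9 cpm in challenged males. The myeloid transcription factor irf8 (groupII from 12097880 to 12101467) was at 9.43, 211, 10.4, 12.6 and 8.35 cpm in control and 20.1, 12.3, 12.4, 11.4 and 15.7 cpm in challenged males. Leaving fish 8 aside, the groups overlapped for both, with the highest value in a challenged male. These gave log2 fold changes of -1.32 and -1.82 with all fish and 0.24 and 0.49 without fish 8, and the adjusted p-values with all fish were 0.721 and 0.682 (edgeR). spi1b and cebpb, 2 more myeloid transcription factors, went from log2 fold changes of -1.27 and -1.50 to 0.28 and 0.38. gpr84, a receptor of activated myeloid cells (scaffold_27 from 1892715 to 1893911), was at 38.6 cpm in fish 8 and at most 0.473 cpm elsewhere, and samsn1a, an adaptor of leukocyte signalling, at 103 cpm in fish 8 and at most 13.6 cpm elsewhere. csf1ra and tmem119a, also on the list and named after their values were seen, were not high in fish 8, at 12.3 and 0.262 cpm.

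Inflammatory mediators followed the same fish. Of 17 genes, 12 (70.6%) were lower and 1 (5.88%) higher at an unadjusted p-value under 0.05, beside 6.61% and 3.85% over all genes. Of the 17, 11 stand in the published list and 16 were highest in control fish 8. Their sum was 147, 1180, 196, 149 and 98.3 cpm in control and 178, 110, 107, 143 and 130 cpm in challenged males. irg1, which makes itaconate in activated macrophages (ENSGACG00000001816, groupXVI from 2495273 to 2497944), was at 2.17, 276, 2.19, 2.98 and 2.18 cpm in control and 4.10, 1.95, 2.12, 2.02 and 2.58 cpm in challenged males, and at 435 cpm in the telencephalon of fish 8. The remaining 9 fish lay between 1.95 and 4.10 cpm in diencephalon. Its log2 fold change was -4.51 (SE 1.29, edgeR-adjusted p = 0.534, exact permutation p = 0.563) with all fish and 0.08 without fish 8. IL4I1 (2 of 2), an amino acid oxidase of immune cells, was at 152 cpm in fish 8 and at most 3.15 cpm elsewhere, with log2 fold changes of -4.52 and 0.75. The median of the 17 genes was -1.67 with all fish and 0.18 without fish 8, and the lower count was 0 without fish 8, 1 with the library index in the model and 5 in the 10 libraries alone.

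Lysosomal genes, which encode the proteases and acid hydrolases of degradation, also went with fish 8. Of 17 genes, 15 (88.2%) were lower and none higher at an unadjusted p-value under 0.05, beside 6.61% lower over all genes. Of the 17, 15 stand in the published list, and the median log2 fold change was -0.97. The lower count was 1 with the library index in the model and 4 in the 10 libraries alone. Without fish 8 the median was 0.12 and 1 gene had a p-value under 0.05. That gene was lgmn, the protease legumain (groupXV from 12139892 to 12145795), at 109, 135, 133, 154 and 132 cpm in control and 112, 110, 92.5, 130 and 91.5 cpm in challenged males. Its groups overlapped, fish 8 did not stand apart, and the log2 fold change was -0.31 (SE 0.12) with all fish and -0.30 without fish 8. grn2, a granulin gene, was at 93.4 cpm in fish 8 and at most 5.57 cpm elsewhere. Of 12 genes of antigen processing and interferon response, 1 (8.33%) was lower, near the 6.61% over all genes, and none is in the published list. Without fish 8 none was lower and the median of -0.45 was 0.12. psmb9a (2 of 5) and psmb9a (3 of 5), copies of an immunoproteasome subunit gene, were at 3.70 and 13.1 cpm in fish 8 and at most 0.337 and 1.29 cpm elsewhere. Reads that fell in several copies may be missing from these counts.

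Complement genes differed from this pattern in part. Of 4 genes, 3 were lower and none higher at an unadjusted p-value under 0.05, beside 6.61% lower over all genes, and 3 stand in the published list. The lower count was 1 without control fish 8, without challenged fish 7, 21, 28 or 36, with the library index in the model and in the 10 libraries alone, and the median of -1.36 was -0.78 without fish 8. C3 (8 of 8) (ENSGACG00000019826, groupIX from 19651307 to 19670618), a copy of the central complement component, was at 27.4, 36.5, 5.07, 52.0 and 27.0 cpm in control and 25.9, 5.58, 5.33, 5.06 and 0.727 cpm in challenged males. Control fish 15 was low and challenged fish 4 was high, so the groups overlapped, and fish 8 did not stand apart. On the log2 scale the difference was -1.83 (SE 0.67, edgeR-adjusted p = 0.634, exact permutation p = 0.0556), -1.75 without fish 8 and -2.80 without fish 4. C3 (1 of 8), another copy, was at 17.6, 18.2, 3.14, 21.6 and 15.2 cpm in control and 17.3, 3.14, 3.74, 2.53 and 0.929 cpm in challenged males, in the same order of fish. Here too, reads that fell in both copies may be missing. C4B, which acts one step earlier, was at 279 cpm in fish 8 and 19.8 to 71.9 cpm elsewhere, and its log2 fold change of -1.22 was -0.14 without fish 8.

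**Figure D3:**
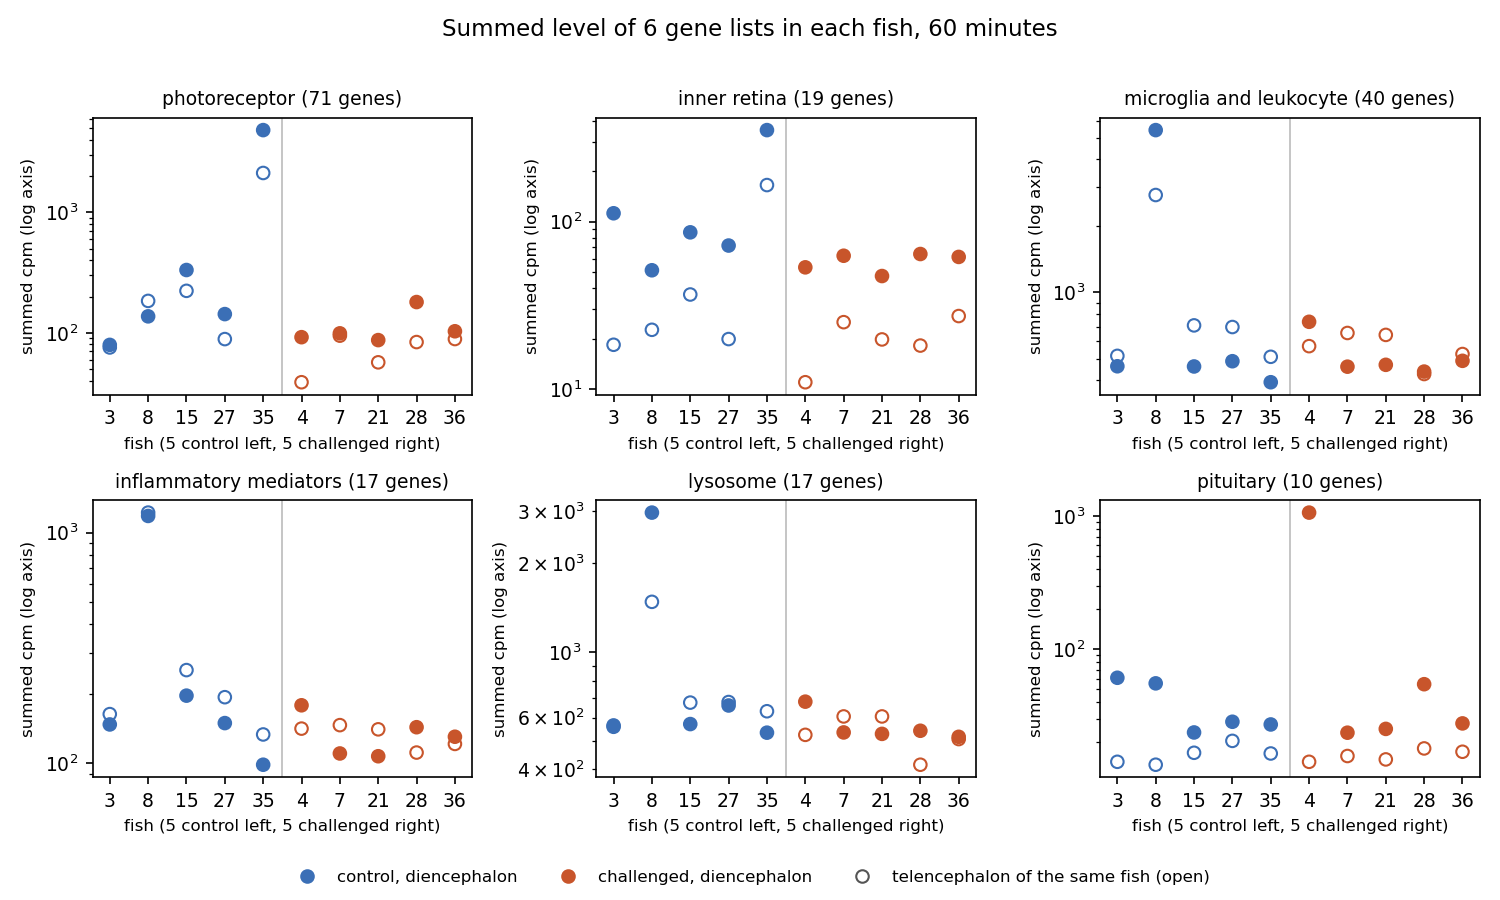
Summed cpm (log axis) of 6 gene lists in each fish, with control fish on the left in blue, challenged fish on the right in red, filled points for diencephalon and open points for the telencephalon of the same fish, where a sum covers only the list genes tested there (57 of 71 photoreceptor, 11 of 19 inner retina and 1 of 10 pituitary genes). Control fish 35 is high for photoreceptor genes, with 4810 cpm in diencephalon and 2120 cpm in telencephalon, control fish 8 for microglia and leukocyte genes, with 5430 and 2760 cpm, and challenged fish 4 for pituitary genes, with 1060 cpm in diencephalon.

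Photoreceptor genes, which encode the light-sensing machinery of rods and cones, were also lower in challenged males, and again 1 control male held most of the difference. Of 71 genes, 68 (95.8%) were lower and none higher at an unadjusted p-value under 0.05, beside 6.61% lower over all genes. The median log2 fold change was -3.63, and 67 of the 71 stand in the published list drawn from these libraries. The summed level was 79.4, 137, 332, 143 and 4810 cpm in control fish 3, 8, 15, 27 and 35 and 92.0, 99.0, 87.0, 180 and 103 cpm in challenged fish 4, 7, 21, 28 and 36. Control fish 35 was far above the rest and control fish 15 was next. Without fish 35 the median over the 59 genes still tested was -0.93, with 1 gene higher and 2 lower at an unadjusted p-value under 0.05, and without fish 8, 15 and 35 it was 0.23. The telencephalon of fish 35 had 2120 cpm and that of the other 9 fish 38.9 to 223 cpm. In the 20 diencephalon libraries of 30 and 120 minutes the sum ran from 81.8 to 2550 cpm with a median of 112.

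The disc rim protein gene rom1b (ENSGACG00000016903, groupIV from 5039722 to 5043757) was at 0.0612, 0.0583, 8.08, 0.0850 and 148 cpm in control and 0, 0.0991, 0, 0.575 and 0.686 cpm in challenged males. Its relative rom1a (groupVII from 15434894 to 15438709) was at 0.520, 0.670, 5.24, 0.0283 and 107 cpm in control and 0, 0.198, 0.127, 0.644 and 0.525 cpm in challenged males. Fish 35 and then fish 15 were highest for both, and the other 3 control males overlapped the challenged males. Their log2 fold changes were -6.73 and -6.13 with all fish (edgeR-adjusted p = 0.547 for both) and -2.81 and -2.31 without fish 35. The photoreceptor transcription factors crx (groupVII from 12798591 to 12800846) and otx5 (groupI from 1988336 to 1991038) were at 21.6 and 21.9 cpm in fish 35, 2.19 and 1.55 cpm in fish 15, and at most 0.943 and 0.578 cpm elsewhere.

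Only 3 of the 71 photoreceptor genes had groups that did not overlap, beside 0.436% lower without overlap over all genes. The opsin kinase gene grk7a (groupIII from 9026167 to 9031456) was at 0.398, 0.408, 1.80, 0.538 and 25.4 cpm in control and 0.263, 0.264, 0.285, 0.322 and 0.283 cpm in challenged males. samd7, a rod gene regulator (groupIII from 12527112 to 12533845), was at 0.398, 0.437, 1.03, 0.482 and 11.3 cpm in control and 0.368, 0.198, 0.222, 0.391 and 0.323 cpm in challenged males. For fscn2a, an actin-bundling protein gene of the retina (groupXI from 9024039 to 9028104), the values were 1.32, 1.22, 0.988, 1.59 and 13.0 cpm in control and 0.368, 0.528, 0.824, 0.690 and 0.929 cpm in challenged males. In each case fish 35 was far above the other control males. Fish 15 was next for grk7a and samd7 but was the lowest control male for fscn2a. The log2 fold changes of -4.30, -3.16 and -2.42 with all fish were -1.43, -0.94 and -0.92 without fish 35.

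Of 19 inner retina genes, 15 (78.9%) were lower and none higher at an unadjusted p-value under 0.05, beside 6.61% lower over all genes. Of the 19, 15 stand in the published list, and the median of -2.34 was -0.04 over the 12 genes still tested without fish 35. vsx1, a transcription factor of bipolar cells (groupVI from 16670943 to 16673485), was at 8.39 cpm in fish 35 and at most 0.129 cpm in every other fish, and lrit3a, a synaptic protein gene of the retina, at 8.16 cpm in fish 35 and at most 0.730 cpm elsewhere. Of 16 pigment and lens genes, 7 (43.8%) were lower and none higher, beside 6.61% lower over all genes. Of the 16, 7 stand in the published list, and the median was -0.62. Without fish 35 none was lower and the median was -0.34, and without challenged fish 4 the lower count was 9 and the median -1.75. rpe65a, a visual cycle enzyme gene (groupIII from 16241440 to 16245486), was at 75.8 cpm in fish 35, 6.79 cpm in fish 15 and 1.89 to 3.34 cpm elsewhere. pmelb, a melanosome gene (groupXII from 15350995 to 15355600), was at 24.9 cpm in fish 35, 1.85 cpm in fish 15 and 0.0874 to 0.368 cpm elsewhere. What the retinal genes in these brain libraries came from was not tested.

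**Figure D4:**
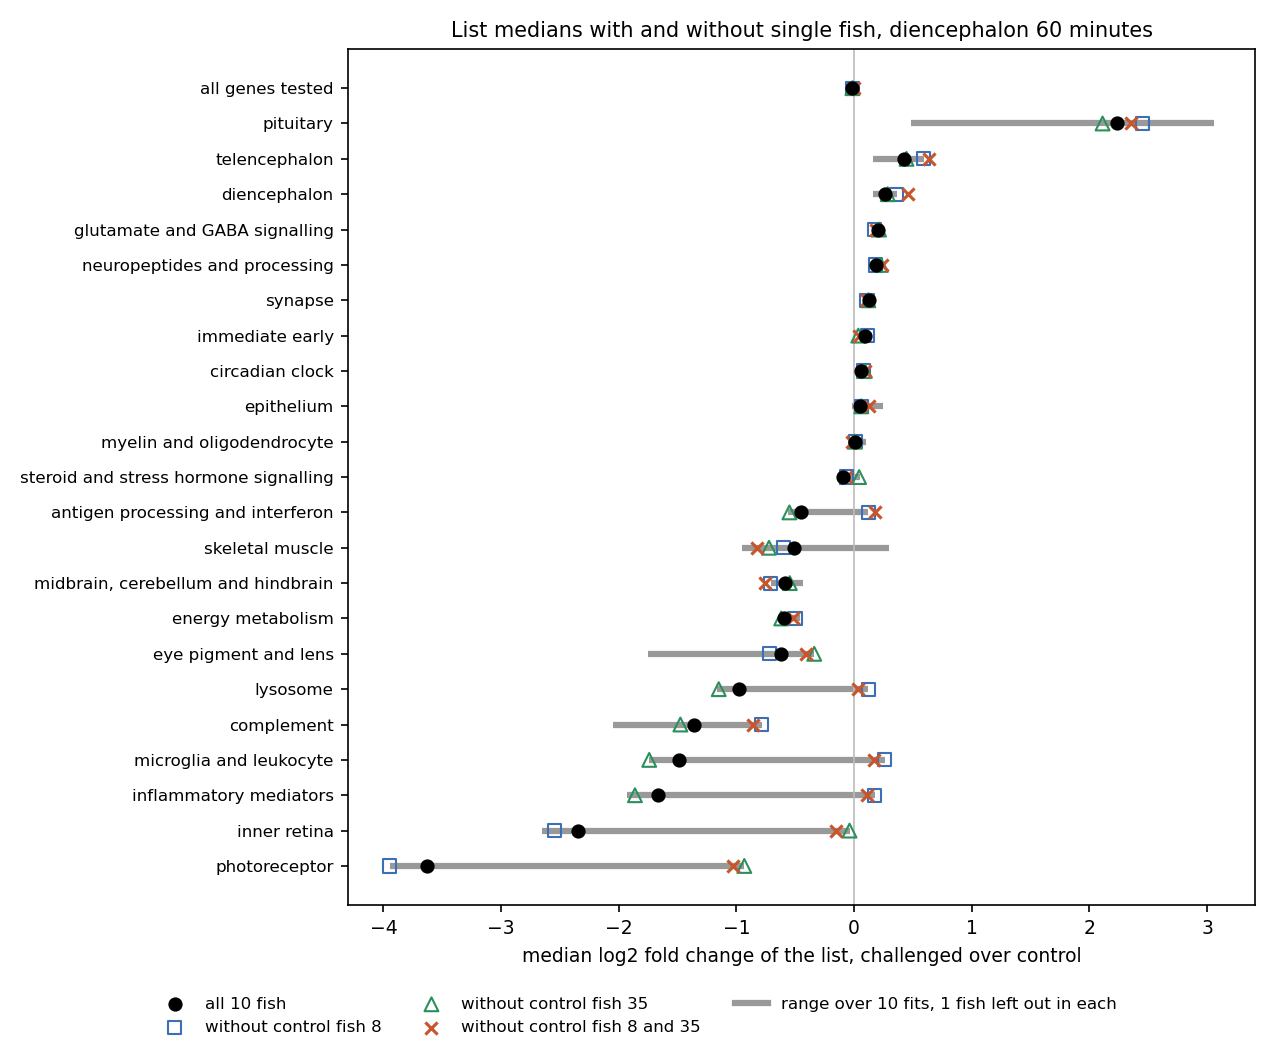
Median log2 fold change of each gene list (horizontal axis, challenged over control) with all 10 fish (black), without control fish 8 (blue squares), without control fish 35 (green triangles) and without both (red crosses), with the range over the 10 fits that leave out 1 fish as grey bars. The microglia and leukocyte median goes from -1.49 to 0.26 without fish 8 and the photoreceptor median from -3.63 to -0.93 without fish 35, whereas the glutamate and GABA median stays between 0.18 and 0.21.

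Pituitary genes were high in 1 challenged fish. Of 10 genes none reached an unadjusted p-value under 0.05, the median log2 fold change was 2.23, and 3 of them stand in the published list. The median was 0.48 without fish 4. With the library index in the model 7 of the 10 were higher with a median of 6.57, and by the likelihood ratio test 3 were higher. Their sum was 60.8, 55.2, 23.6, 28.4 and 27.1 cpm in control and 1060, 23.5, 25.1, 54.4 and 27.6 cpm in challenged males. The receptor gene gnrhr1, named after its values were seen, made up most of the low sums, at 18 to 24.1 cpm. It was at 13.5 to 20.4 cpm in telencephalon. Prolactin (prl, ENSGACG00000006561, groupXI from 3126464 to 3129991) was at 24.3, 26.8, 0.473, 0 and 0.0927 cpm in control and 842, 0.0330, 1.01, 4.51 and 1.29 cpm in challenged males. Challenged fish 4 was far above the rest, control fish 3 and 8 were next, and the groups overlapped. Its log2 fold change of 4.00 (SE 2.41, edgeR-adjusted p = 0.823) was -2.52 without fish 4, and the exact permutation p was 0.619.

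The shared glycoprotein hormone subunit cga was at 5.48, 0.175, 0, 0.0283 and 0.232 cpm in control and 61.5, 0, 0.158, 15.6 and 1.01 cpm in challenged males. Growth hormone (gh1) was at 6, 0.117, 0, 0.0850 and 0.0464 cpm in control and 57.6, 0, 0.0634, 5.84 and 0.363 cpm in challenged males. Challenged fish 4 was highest for both, followed by challenged fish 28 for cga and by control fish 3 for gh1. The lowest challenged male was at 0 for both. Their log2 fold changes of 3.60 and 3.21 were 1.83 and 0.40 without fish 4, with adjusted p-values of 0.846 and 0.853 for all fish (edgeR). lhb, the luteinizing hormone subunit, reached 11.6 cpm in fish 4 and 3.38 cpm in fish 28 and was at most 1.5 cpm elsewhere. tshb, the thyrotropin subunit, was at most 0.841 cpm in any fish, and nr5a1b, a transcription factor of gonadotrope cells, at most 2.47 cpm, both in fish 4. In the other 20 diencephalon libraries the sum of the 10 genes ran from 17.8 to 6710 cpm with a median of 27.9.

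Genes of neighbouring brain regions varied between fish as well. Of 16 midbrain, cerebellum and hindbrain genes, 7 (43.8%) were lower and none higher at an unadjusted p-value under 0.05, beside 6.61% lower over all genes. Of the 16, 6 stand in the published list and 8 were highest in control fish 3. Without fish 3 the lower count was 3, and with the library index in the model it was 2. The sum was 862, 280, 464, 431 and 315 cpm in control and 248, 339, 290, 287 and 358 cpm in challenged males. fat2, a cadherin gene of cerebellar granule cells in mammals (ENSGACG00000016824, groupIV from 4393867 to 4436529), was at 434, 69.2, 158, 163 and 77.2 cpm in control and 44.5, 84.9, 56.7, 65.2 and 96.6 cpm in challenged males, so that control fish 3, 27 and 15 were above every challenged male and the groups overlapped. It had a log2 fold change of -1.37 (SE 0.50, edgeR-adjusted p = 0.634). PCP2, on this list as a Purkinje cell gene, was at 21.9 cpm in control fish 35 and 2.18 to 5.75 cpm elsewhere. Fish 35 was also highest for 18 of 19 inner retina genes, and which cells PCP2 came from was not tested. The part of midbrain, cerebellum and hindbrain in the lower levels of slc1a3b and slc17a7, which were also highest in fish 3, was not tested.

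Of 11 telencephalic genes tested, 2 (18.2%) were higher and none lower at an unadjusted p-value under 0.05, beside 3.85% higher over all genes. Of the 11, 1 stands in the published list and 8 were highest in challenged fish 4. The median log2 fold change of 0.43 was 0.16 without fish 4, with none higher, and the higher count was 5 without control fish 8. dlx5a, a homeobox gene of GABAergic neurons (groupX from 9487805 to 9489427), was at 6.83, 9.03, 6.10, 8.30 and 9.00 cpm in control and 20.4, 9.58, 10.1, 11.4 and 9.37 cpm in challenged males. The groups did not overlap, but fish 4 carried much of the difference. It differed by a log2 fold change of 0.63 (SE 0.22, edgeR-adjusted p = 0.594, exact permutation p = 0.00794) with all fish and 0.37 without fish 4. The permutation p was fixed by the lack of overlap, for which the gene was picked. dlx6a, its neighbour in the dlx cluster of vertebrates, was at 7.26 to 11.1 cpm in control and 9.31 to 18.8 cpm in challenged males, with overlap. Of the 9 diencephalic genes none had an unadjusted p-value under 0.05 in the main fit, with a median log2 fold change of 0.26. In the 10 libraries alone 4 were higher and none lower, with a median of 0.27, beside 702 higher of all 17448 genes. The hypothalamic factors sim1b and nkx2.4a ran from 2.66 to 3.76 and 12.9 to 19.0 cpm in control and from 3.73 to 4.47 and 14.6 to 22.3 cpm in challenged males.

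Muscle, epithelial and myelin genes, which mark other tissues and cell types, gave mixed counts. Of 25 muscle genes, 5 (20%) were lower and none higher at an unadjusted p-value under 0.05, beside 6.61% lower over all genes. Of the 25, 5 stand in the published list, and the median of -0.51 was 0.30 without control fish 3, in which 13 of them were highest. sgcg, a sarcoglycan of the membrane complex of muscle (ENSGACG00000006839, groupI from 4128096 to 4137512), was at 15.2, 11.2, 8.63, 8.87 and 7.79 cpm in control and 5.15, 6.80, 7.73, 7.13 and 3.67 cpm in challenged males. No challenged male reached a control male, although control fish 35 and challenged fish 21 nearly met. mybpc2a, a myosin binding protein gene, was at 3.64 to 11.6 cpm in control and 1.84 to 3.71 cpm in challenged males. They had log2 fold changes of -0.76 (SE 0.21) and -0.93 (SE 0.25), both with an adjusted p of 0.534 (edgeR). Of 21 epithelial genes, 1 was higher and 1 lower (cdh1, at 49.0 cpm in fish 8 and at most 7.00 cpm elsewhere), which is 4.76% each way beside 3.85% and 6.61% over all genes, and 2 stand in the published list. Of 13 myelin and oligodendrocyte genes, 1 (7.69%) was higher and 2 (15.4%) were lower, beside the same shares over all genes, and 3 stand in the published list. The higher one, gpr37b (groupIV from 18073415 to 18082812), ran from 16.0 to 20.3 cpm in control and from 20.7 to 25.0 cpm in challenged males, with no overlap and a log2 fold change of 0.33 (SE 0.12, edgeR-adjusted p = 0.607). PLEKHB1 was at 11.3 cpm in control fish 35 and at most 0.816 cpm elsewhere. That fish was also highest for 70 of 71 photoreceptor genes.

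Other genes were taken from the text and gene tables of the study. nfatc3a, a calcium-dependent transcription factor (groupII from 14997944 to 15034759), was at 25.1, 11.7, 12.5, 10.3 and 7.84 cpm in control and 7.20, 8.39, 7.54, 7.50 and 8.20 cpm in challenged males. Control fish 3 was well above all other fish and control fish 35 fell among the challenged males. The fitted log2 fold change was -0.80 (SE 0.28, edgeR-adjusted p = 0.622, exact permutation p = 0.0238). matn4, a matrilin of extracellular matrix (scaffold_89 from 230109 to 238032), was at 4.38, 2.56, 4.12, 11.4 and 2.97 cpm in control and 3.10, 1.68, 1.97, 1.45 and 1.21 cpm in challenged males, with a log2 fold change of -1.45 (SE 0.57, edgeR-adjusted p = 0.654). CAMKK1 (1 of 2), a kinase of calcium signalling, was at 10.9 cpm in control fish 35, 2.01 to 4.38 cpm in the other control males and 1.37 to 3.96 cpm in challenged males. pparg, a nuclear receptor of lipid metabolism and macrophages (scaffold_27 from 4856585 to 4866605), was at 54.1 cpm in control fish 8 and 5.09 to 8.62 cpm elsewhere, and its log2 fold change of -1.31 was -0.04 without fish 8.

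The comparison was set beside the telencephalon of the same fish and the diencephalon of other fish at 30 and 120 minutes. In telencephalon at 60 minutes 1227 genes (7.11%) were higher and 900 (5.22%) lower at an unadjusted p-value under 0.05, in diencephalon at 30 minutes 251 (1.44%) and 321 (1.84%), and at 120 minutes 617 (3.54%) and 416 (2.38%). For glutamate and GABA genes the median log2 fold change was 0.20 here, 0.23 in telencephalon, 0.03 at 30 minutes and -0.04 at 120 minutes. For synaptic genes it was 0.13, 0.32, -0.01 and -0.06. In telencephalon 21 of the 24 were higher and 2 lower at an unadjusted p-value under 0.05. That list too was drawn from genes named in the study's tables, which cover telencephalon as well. For microglia and leukocyte genes it was -1.49, -0.83, 0.13 and 0.96, and for photoreceptor genes -3.63, -4.13, -0.10 and 2.60. The 2 regions at 60 minutes come from the same 10 fish, so their values are given side by side only, and fish 8 and fish 35 stood apart in both. Pituitary genes had medians of -5.40 at 30 and -6.15 at 120 minutes.

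**Figure D5:**
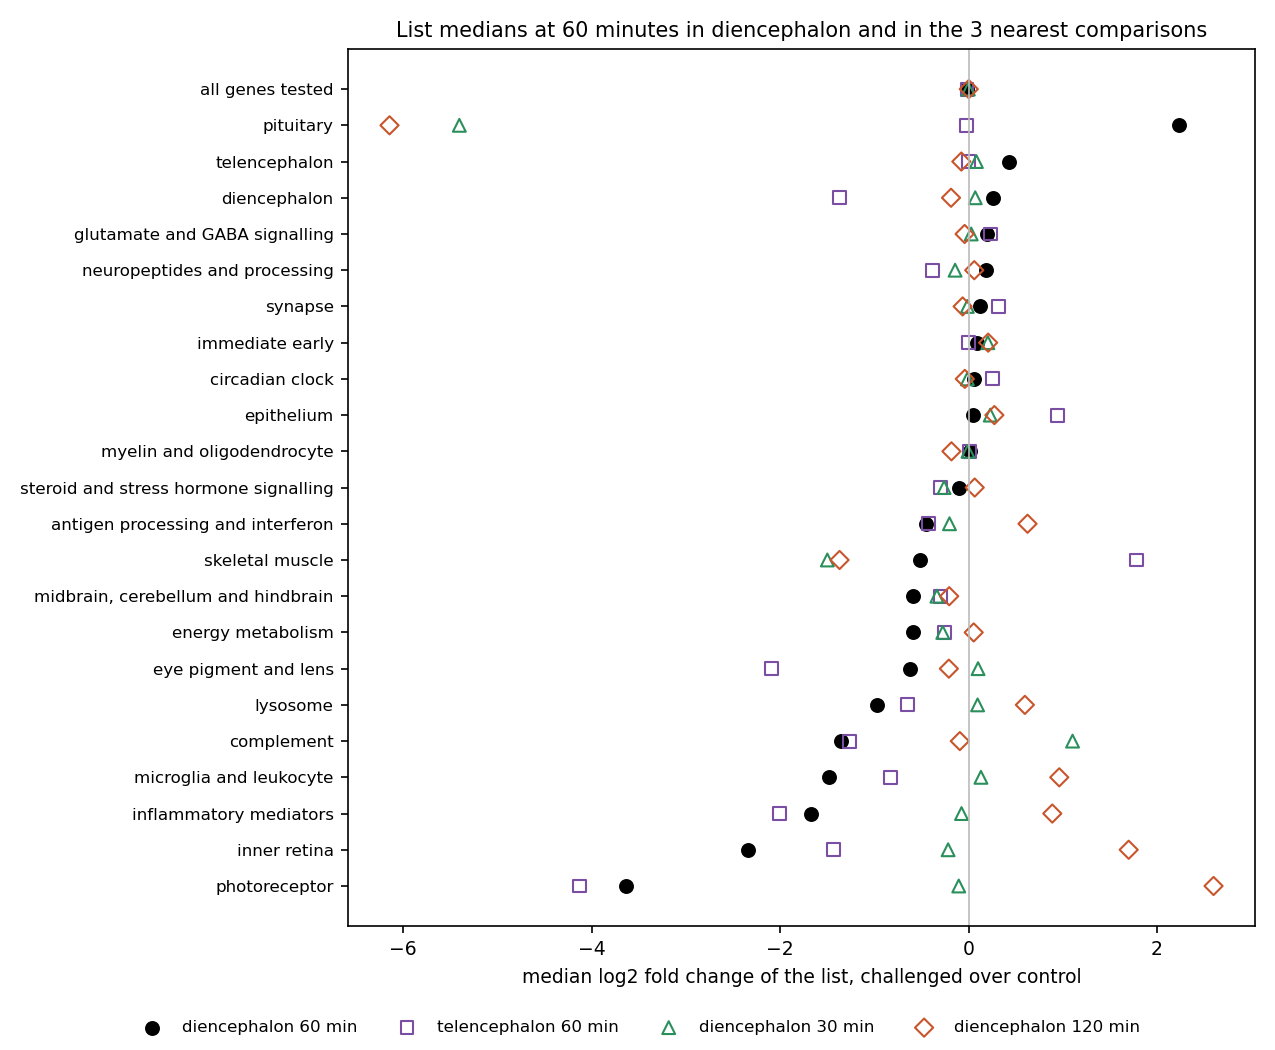
Median log2 fold change of each gene list (horizontal axis, challenged over control) in diencephalon at 60 minutes (black) and, as open symbols, in telencephalon at 60 minutes and in diencephalon at 30 and 120 minutes. The medians of photoreceptor genes lie at -3.63 and -4.13 in the 2 regions at 60 minutes and at 2.60 in diencephalon at 120 minutes, and those of glutamate and GABA genes between -0.04 and 0.23.

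Tests of the difference itself called few genes. For 60 against 120 minutes, 67 of the 71 photoreceptor and 34 of the 40 microglia and leukocyte genes had a lower response at 60 minutes at an unadjusted p-value under 0.05 and none a higher one, beside 7.47% lower over all genes, while 10 of the 24 glutamate and GABA genes had a higher and 2 a lower response, beside 4.14% higher over all genes. Of the 10 pituitary genes, 6 had a higher and none a lower response at 60 than at 120 minutes, and 8 a higher and 1 a lower response at 60 than at 30 minutes, beside 5.04% of all genes in either direction. These list counts are with all fish only, and single fish held much of the 3 lists. At 60 minutes the pituitary median of 2.23 was 0.48 without fish 4. In the 20 diencephalon libraries of the other times the pituitary sum reached 6710 cpm, with a median of 27.9. The difference in response between diencephalon and telencephalon at 60 minutes was past the adjusted threshold for no gene (edgeR quasi-likelihood test, 95 genes or 0.542% higher and 485 or 2.77% lower in diencephalon at an unadjusted p-value under 0.05). With the fish as a replicate block, since both regions come from the same animal, no gene passed either, and 348 (1.99%) and 1410 (8.04%) had a p-value under 0.05, so that the block moved the count by more than 1.5 times. A likelihood ratio test also called 0 genes. The difference between 60 and 30 minutes in diencephalon called 0 genes by the quasi-likelihood test (879 or 5.04% at an unadjusted p-value under 0.05 in either direction) and 11 by the likelihood ratio test.

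For 60 against 120 minutes 1 gene (0.00573%) was called, with 723 higher and 1303 lower at an unadjusted p-value under 0.05. The called gene was zpld1a, which encodes a zona pellucida-like domain protein (ENSGACG00000020103, groupVII from 10761112 to 10770855), named after its values were seen. At 60 minutes it was at 0.122, 0.117, 0.258, 9.63 and 7.79 cpm in control and 0, 0.0660, 0.0317, 0.207 and 0.162 cpm in challenged males. At 120 minutes 2 challenged males were at 18.9 and 27.6 cpm and the other 3 between 0.0861 and 0.138 cpm, while control males did not exceed 0.103 cpm. Its level was thus high in 2 fish of a group and near 0 in the others, and the groups overlapped at 60 minutes. The log2 difference between the 2 responses was -12.05 (edgeR-adjusted p = 0.07, edgeR quasi-likelihood test with Benjamini-Hochberg adjustment). The number of genes called for 60 against 120 minutes was 286 by the likelihood ratio test and 0 under a stricter expression filter, and it ran from 0 without control fish 35 or any 1 challenged fish to 180 without control fish 3.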

How the data were processed

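The authors sequenced poly-A RNA with single-end reads from a stranded (dUTP) library, base-called with CASAVA 1.8.2, trimmed the reads, aligned them with TopHat2 2.0.8 and counted them per gene with HTSeq 0.6.1, leaving out reads that fell in several genes. The deposited values are raw read counts per gene, with no normalization. The submitters' processing notes name a mouse build although the gene identifiers are those of stickleback, so positions are given as in the gene tables of the study (Ensembl release 75), which also gave the gene names. Library totals ran from 17705327 to 55299804 counts.

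The counts were analysed with edgeR 4.0.16 in R 4.3.3. A gene was kept if 2 or more of the 30 diencephalon libraries had 1 cpm or more. Libraries were normalized by TMM and fitted with time and treatment within time by the quasi-likelihood test. Benjamini-Hochberg adjustment was made over all genes of the 6 comparisons of region and time with a threshold of 0.1, and the SE is the absolute log2 fold change divided by the square root of F. Exact permutation tests were two-sided, on log2 cpm with a prior count of 2, over the 252 arrangements of 5 against 5 fish. Differences between regions and times were tested as interaction terms. Labels say that libraries with the same number in the 2 regions are from the same animal, and their deviations from the group means correlated at 0.431 to 0.771 over 17168 genes, so the fish was used as a replicate block in an alternative. Replicates were compared pairwise and no pair agreed within sampling noise (the smallest chi-square per gene was 13.6). The labels describe the fish as separate animals.

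Named genes were the 2 of each list with the smallest p-value, the 10 named genes with the smallest p-value over all genes, the 5 higher and 5 lower named genes of at least 1 cpm with no overlap and the largest difference, and a set of genes taken from the text and gene tables of the study, with at most 2 higher and 2 lower genes without a name. The 22 lists held 421 genes, 417 of them tested. Their genes were drawn from the 1780 genes that the study's tables name, and most of those tables list genes chosen for differences in these libraries. The members and the lists were chosen with earlier results of these data known. The fits were repeated with DESeq2 1.42.0, with a likelihood ratio test on tagwise dispersions, with RLE size factors, with other expression filters, with library index as a covariate, on the 10 libraries alone and after dropping 1 fish at a time. Leaving out control fish 8 and 35, or 8, 15 and 35, was added after seeing the data. The fits were also run on simulated counts, in which dispersions were capped and no fish was made to stand apart. That run cannot show how the fits behave when single fish lie far above the rest. Figures were drawn with matplotlib 3.10.9. The study's own fold changes and p-values were not used. Sequences were not used here. Some genes that the rule names are withheld and are not reported here.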

Additional observations from a re-analysis of the deposited data

Results flagged for a closer look

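In 37 of 210 groups of 5 fish (17.6%), 1 fish stood apart, with a gap to its nearest neighbour divided by the range of the group above Dixon's 0.71. Chance flags about 1 in 20 groups, and the groups are not independent, since the same fish enter all of them. The lists and genes were also chosen with earlier results of these data known, and many genes by their values here. The rate of 1 in 20 is therefore not a like background, and no excess over it is read from these counts. Fish 8 stood apart in 16 groups, fish 4 in 9 and fish 35 in 6.

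Control fish 8 was the highest control male for the mean level of microglia and leukocyte (ratio 0.9), inflammatory (0.875), antigen processing and interferon (0.797) and lysosomal genes (0.868). Among single genes it was highest for gpr84 (0.906), irg1 (0.936), IL4I1 (2 of 2) (0.764), psmb9a (3 of 5) (0.77), grn2 (0.858), hk1 (0.763), slc2a6 (0.878), irf8 (0.872), cebpb (0.938), spi1b (0.786), pparg (0.816) and p2ry12 (0.814). Of these genes, hk1, an enzyme of glucose breakdown, slc2a6, a sugar transporter, and pparg were on the energy metabolism list. The others were on the immune or lysosomal lists.

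Challenged fish 4 was the highest challenged male for the mean of microglia and leukocyte (0.844), lysosomal (0.864) and eye pigment and lens genes (0.816), and the lowest for myelin and oligodendrocyte genes (0.771). It was also highest for samsn1a (0.733), IL4I1 (2 of 2) (0.841), spi1b (0.861), dlx5a (0.749) and ENSGACG00000009609 (0.725).

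Control fish 35 was the highest control male for samd7 (0.731), vsx1 (0.775), PCP2 (0.716), WASF3 (2 of 2) (0.888) and fscn2a (0.821), and the lowest for the mean of immediate early genes (0.734). Control fish 15 was lowest for C3 (8 of 8) (0.717) and C3 (1 of 8) (0.816), and control fish 3 was highest for the hormone genes lhb (0.737) and gh1 (0.773). Challenged fish 28 was highest for gpn2 (0.859) and the only challenged male with any count of vsx1 (ratio 1).

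zpld1a was picked out because its response to the challenge differed between 60 and 120 minutes (adjusted p = 0.07, edgeR quasi-likelihood test with Benjamini-Hochberg adjustment).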

How the results depend on the processing

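For challenged against control males, 0 genes were called by the quasi-likelihood test, 50 by the likelihood ratio test and 76 by DESeq2, of which 15 and 22 were among the genes named by rule. No gene was called with any 1 fish left out. Genes with an unadjusted p-value under 0.05 numbered 1826, and 1062 with the library index in the model. Their higher share was 36.8%, 23.8% by the likelihood ratio test, 51.4% without fish 8 and 35, and 49.5% in the 10 libraries alone. The cause was not tested. The interaction of 60 against 30 minutes gave 11 calls by the likelihood ratio test. That of 60 against 120 minutes gave 1 call, 286 by the likelihood ratio test, 0 under the filter of 1 cpm in at least 25 libraries, and 0 to 180 with 1 fish left out. The region interaction called 0 genes both without and with a replicate block for fish. No paired analysis was possible for challenged against control males because the groups share no fish numbers and, although the study's methods pair each control male with a challenged male, the labels do not give the pairs.

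With each fish left out in turn, some log2 fold changes crossed 0. They ran from -6.42 to 0.65 for gpr84, -4.82 to 0.084 for irg1, -5.01 to 0.75 for IL4I1 (2 of 2), -1.93 to 0.68 for psmb9a (3 of 5), -3.83 to 0.88 for grn2, -2.52 to 4.71 for prl, -5.20 to 0.69 for slc2a6, -2.10 to 0.49 for irf8, -1.75 to 0.38 for cebpb, -1.51 to 0.28 for spi1b, -1.56 to 0.24 for p2ry12 and -0.30 to 0.026 for avp. List medians ran from -1.74 to 0.26 for microglia and leukocyte, -1.93 to 0.18 for inflammatory, -0.56 to 0.12 for antigen processing and interferon, -1.16 to 0.12 for lysosomal, -0.027 to 0.10 for myelin, -0.95 to 0.30 for muscle, -0.014 to 0.25 for epithelial and -0.14 to 0.049 for steroid genes.

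Without control fish 8 and 35, log2 fold changes on the other side of 0 were 0.64 for gpr84, 0.14 for samsn1a, 0.054 for irg1, 0.53 for IL4I1 (2 of 2), 0.55 for psmb9a (3 of 5), 1.13 for grn2, 0.70 for slc2a6, 0.27 for cdh1, 0.41 for irf8, 0.43 for cebpb, 0.18 for spi1b and 0.14 for p2ry12. Medians were 0.17 for microglia and leukocyte, 0.11 for inflammatory, 0.18 for antigen processing and interferon, 0.035 for lysosomal and -0.016 for myelin genes. Without fish 8, 15 and 35 the values were 0.36 for gpr84, 0.27 for samsn1a, 0.28 for IL4I1 (2 of 2), 0.595 for psmb9a (3 of 5), 1.07 for grn2, 0.48 for slc2a6, 0.20 for cdh1, 0.38 for irf8, 0.40 for cebpb, 0.12 for spi1b, 0.16 for p2ry12, 0.23 for rom1a, 1.91 for rom1b, 0.13 for crx and 0.23 for otx5. The medians were then 0.23 for photoreceptor, 0.10 for inner retina, 0.16 for microglia and leukocyte, 0.26 for inflammatory, 0.16 for antigen processing and interferon and 0.13 for steroid genes. Both choices were made after seeing the data. The muscle median was 0.075 under the stricter filter, and with the library index the steroid median was 0.10 and the pituitary median 6.57.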

Other observations

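lin37, a subunit of the DREAM complex that regulates cell cycle genes (ENSGACG00000007600, groupXX from 8907622 to 8910713), was named after its values were seen. It was at 177, 145, 233, 219 and 139 cpm in control fish 3, 8, 15, 27 and 35 and at 64.7, 51.2, 58.6, 135 and 55.1 cpm in challenged fish 4, 7, 21, 28 and 36. The groups did not overlap, although challenged fish 28 nearly reached control fish 35. It differed by -1.32 on the log2 scale (SE 0.35, adjusted p = 0.534 by edgeR), and by -1.40 without control fish 8. In the telencephalon of the same fish the log2 fold change was -0.89, and in diencephalon of other fish it was 0.59 at 30 and -0.35 at 120 minutes.

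Among genes without a name, ENSGACG00000009609 was at 53.3 cpm in challenged fish 4, 2.31 to 5.52 cpm in the other challenged males and 1.63 to 2.42 cpm in control males, and its log2 fold change of 2.75 was 0.92 without fish 4. ENSGACG00000018787 ran from 251 to 275 cpm in control and from 296 to 309 cpm in challenged males, with no overlap. ENSGACG00000001197 ran from 9.64 to 12.7 cpm in control and from 6.91 to 10.4 cpm in challenged males. ENSGACG00000010000 was at 11.0 cpm in control fish 3, 0.787 to 2.07 cpm in the other control males and 0.420 to 1.24 cpm in challenged males.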
